A study of Mus musculus with 12 samples.

Results

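The mouse kidney was examined for 10 genes of the YAP and TEAD pathway: *Ccn1*, *Ccn2*, *Ankrd1*, *Amotl2*, *Lats2*, *Ajuba*, *Fjx1*, *Thbs1*, *Yap1* and *Tead1*. These 10 genes, of 55401 gene identifiers in the data, were chosen by the measured level of *Ccn1*, which was lower after SK-124, together with knowledge of the pathway, and the question was whether other YAP targets were lower too. The values of *Ccn1* in these mice led to the choice, so they are given as a description without a test. RNA-Seq was done on whole kidneys of male C57BL6 mice, 8 weeks old, that received 1 intraperitoneal injection. The control group (vehicle, n = 6) received 15% 2-hydroxypropyl-beta-cyclodextrin, and the treated group (SK-124, n = 6) received 40 mg/kg of SK-124, an inhibitor selective for the salt-inducible kinases SIK2 and SIK3. No genetic change was made in either group, each library came from 1 mouse, and the interval between injection and collection is not given in the sources used here.

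YAP, encoded by *Yap1*, and its paralogue TAZ, encoded by *Wwtr1*, are transcriptional coactivators without a DNA-binding domain of their own. They act through the TEAD family of DNA-binding factors. The Hippo kinase cascade, in which MST kinases activate LATS kinases, phosphorylates YAP and TAZ and thereby keeps them out of the nucleus. Several targets feed back on the pathway, among them *Lats2*, *Amotl2* and *Ajuba*. In the kidney, YAP and TAZ are known for roles in tubular growth, podocyte survival and fibrosis. Their activity is set mainly at the level of the protein, so mRNA levels of *Yap1* do not report it.

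Promoter sequences of 6 of the 10 genes were taken from RefSeq (build GRCm38.p6). In 5 of these 6, the 250 bases before the RefSeq start site held the core TEAD motif GGAATG or its reverse complement CATTCC, which also occurred in 12.6% of 32851 promoter windows of the same length. The windows of *Ankrd1* and *Amotl2* lie within the gene as annotated in GENCODE M21 and overlap an annotated 5′ UTR, since that annotation holds transcripts that start further upstream, and of the 4 genes whose windows overlap none, 3 held the motif. The motif is a description of the sequence and was not a measured binding site. The windows of *Ccn1*, which led to the choice of genes, and *Ajuba*, the gene that fell, are shown in full, 5′ to 3′ on the gene's strand, with the motif in capitals. The *Ccn1* window is chr3:145649986-145650235 (minus strand) and the *Ajuba* window is chr14:54577662-54577911 (minus strand).
Ccn1: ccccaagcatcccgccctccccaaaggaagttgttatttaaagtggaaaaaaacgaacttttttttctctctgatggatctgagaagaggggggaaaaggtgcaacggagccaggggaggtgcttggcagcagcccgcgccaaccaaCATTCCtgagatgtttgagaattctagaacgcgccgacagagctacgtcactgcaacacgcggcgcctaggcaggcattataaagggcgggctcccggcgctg
Ajuba: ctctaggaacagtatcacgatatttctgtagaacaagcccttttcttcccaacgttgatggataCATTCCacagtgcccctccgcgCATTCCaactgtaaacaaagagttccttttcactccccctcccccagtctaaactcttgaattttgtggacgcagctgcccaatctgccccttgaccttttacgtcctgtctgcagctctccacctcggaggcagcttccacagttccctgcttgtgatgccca

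The motif began 103 bases before the start of *Ccn1* and 186 and 164 bases before that of *Ajuba*, on the opposite strand in both genes. For *Ankrd1*, *Amotl2* and *Yap1* the motif is shown with 10 bases on each side only, since the windows of *Ankrd1* and *Amotl2* overlap annotated UTRs. Counted from the RefSeq start, *Ankrd1* held it 210 and 123 bases before, *Amotl2* 65 bases before and *Yap1* 141 bases before, but the sites of *Ankrd1* and *Amotl2* lie inside the genes as GENCODE M21 annotates them. The sites lie at chr19:36120039-36120064 and chr19:36119952-36119977 (minus strand), chr9:102717729-102717754 (plus strand) and chr9:8004722-8004747 (minus strand), in that order.
Ankrd1 distal: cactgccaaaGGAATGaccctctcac
Ankrd1 proximal: cactaagtctGGAATGaaaattcacc
Amotl2: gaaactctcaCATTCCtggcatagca
Yap1: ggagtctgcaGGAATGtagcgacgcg

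Both start sites of *Lats2* lacked these letters in the window. Their windows overlap no annotated UTR but also lie inside the gene as GENCODE M21 annotates it. None of the 6 genes held a cAMP response element (TGACGTCA), an AP-1 motif (TGANTCA) or a CArG box in the window, searched on both strands, and these occurred in 1.55%, 6.75% and 1.47% of all windows.

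Libraries were similar in size, with 19244227 to 19771802 expected counts per mouse. Levels are given as CPM, counts scaled to the size of the library. The proximal tubule markers *Slc34a1*, *Lrp2*, *Slc5a2*, *Slc5a12* and *Cubn*, which define the most abundant cells of the kidney cortex, were at 0 in no mouse and together held 5952 to 7659 CPM. In SK-124 mice 1, 2 and 3, the 10 most abundant genes took 44.4% to 46.8% of the counts, compared with 38.6% to 40.2% in SK-124 mice 4, 5 and 6 and 39.9% to 43.2% in vehicle mice. Vehicle mouse 5 stood apart in several of the genes described here. For the genes named by the rule given under data processing, calls that were lost without these 4 mice are therefore given with and without them. Of 14159 genes that passed the filter on low counts, 1917 fell and 1536 rose at a false discovery rate (FDR) under 0.05, with a median log2 fold change of -0.01.

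Gene positions are from GENCODE M21 (GRCm38). *Ccn1* (ENSMUSG00000028195.4, chr3:145646976-145649981, minus strand) encodes a secreted matricellular protein that binds integrins and is among the best-known direct YAP targets. Its level in vehicle mice 1 to 6 was 10.9, 14.5, 11.2, 17.7, 77 and 12.2 CPM, and in SK-124 mice 1 to 6 it was 6.31, 7.48, 7.73, 13.1, 12.4 and 8.72 CPM. Vehicle mouse 5 was far above all others, at 6.33 times the median of the other 5 vehicle mice, and 4 of 6 SK-124 mice lay below every vehicle mouse. The group means were 23.9 ± 26.1 CPM and 9.3 ± 2.81 CPM (SD, n = 6 each). After SK-124, *Ccn1* was thus 2.56-fold lower (log2 fold change -1.36). Without vehicle mouse 5, the vehicle mean was 13.3 ± 2.84 CPM (SD, n = 5) and the log2 fold change was -0.51. It was -1.07 without SK-124 mice 1, 2 and 3, and -0.21 without all 4 of these mice. Thus most of the difference in *Ccn1* came from 1 vehicle kidney, and the values that remained were lower after SK-124 by a smaller amount.

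Of the other 9 genes, 1 fell (*Ajuba*), 1 rose (*Tead1*) and 7 did not pass the test, with a median log2 fold change of 0.00. Over all genes tested, 13.5% fell and 10.8% rose, and 1 of 9 genes is close to this background in each direction. By the stricter measure that the 6 SK-124 mice all lie on 1 side of the 6 vehicle mice, *Ajuba* was lower and *Tead1* was higher, compared with 6.65% and 6.32% of all genes tested, or 13% in either direction. In whole kidney, a lower level per cell and fewer cells that express a gene cannot be told apart.

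**Figure D1:**
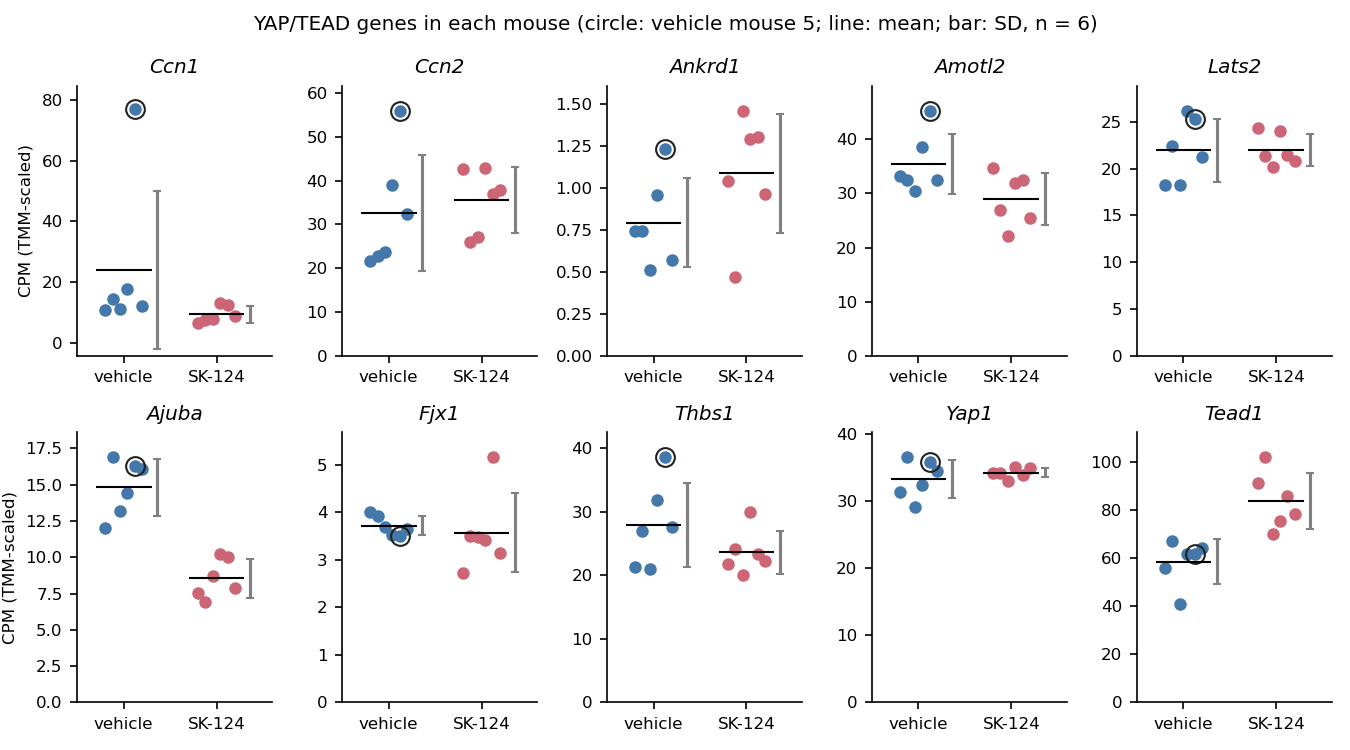
Level of each of the 10 genes in every mouse, in TMM-scaled CPM on a linear axis, with vehicle in blue, SK-124 in red, the mean as a line and the SD as a bar (n = 6 per group). Vehicle mouse 5, circled, is at 77 CPM for *Ccn1*, while the groups are separate for *Ajuba* and *Tead1* and overlap for the other 8 genes.

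Among secreted targets, *Ccn2* (ENSMUSG00000019997.11, chr10:24595442-24598683, plus strand), which encodes connective tissue growth factor, is the paralogue of *Ccn1* and a direct YAP target as well. Its mean was not lower after SK-124. It was at 21.6, 22.8, 23.7, 38.9, 56 and 32.4 CPM in vehicle mice 1 to 6 and at 42.7, 25.9, 27.1, 42.9, 36.9 and 37.9 CPM in SK-124 mice 1 to 6. The groups overlapped, with vehicle mouse 5 again the highest of all 12. SK-124 and vehicle mice differed by a log2 fold change of 0.13 (95% interval -0.31 to 0.56, FDR = 0.704), and 0.35 without vehicle mouse 5. *Gm15270*, which overlaps it on the opposite strand, had at most 9 counts. The interval of *Ccn2* leaves out a fall of the size seen in *Ccn1* with all mice, and also one of the size seen in *Ccn1* without vehicle mouse 5. It holds the -0.21 of *Ccn1* without vehicle mouse 5 and SK-124 mice 1, 2 and 3, so a small fall of *Ccn2* is not left out.

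*Thbs1* (ENSMUSG00000040152.8, chr2:118111876-118127133, plus strand) encodes thrombospondin 1, a matrix glycoprotein that activates latent TGF-β. Vehicle mice 1 to 6 had 21.3, 27, 21, 31.8, 38.6 and 27.6 CPM, and SK-124 mice 1 to 6 had 21.8, 24.1, 20.1, 29.9, 23.4 and 22.2 CPM. The groups overlapped and vehicle mouse 5 was the highest. *Thbs1* differed by -0.24 on the log2 scale (95% interval -0.52 to 0.04, FDR = 0.211), and -0.12 without that mouse.

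*Fjx1* (ENSMUSG00000075012.4, chr2:102449366-102452499, minus strand) encodes a secreted factor related to Drosophila four-jointed, which modifies the protocadherins Fat and Dachsous. It was at 4, 3.91, 3.68, 3.53, 3.51 and 3.65 CPM in vehicle mice 1 to 6 and at 2.72, 3.51, 3.47, 3.42, 5.16 and 3.14 CPM in SK-124 mice 1 to 6. SK-124 mouse 5 was above all vehicle mice, and the other 5 SK-124 mice were below them, mouse 2 by less than the rounding of these values. *Fjx1* had a log2 fold change of -0.05 (95% interval -0.33 to 0.23, FDR = 0.819).

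Among intracellular targets that feed back on the pathway, *Ajuba* (ENSMUSG00000022178.11, chr14:54567472-54577558, minus strand) fell. It encodes a LIM-domain protein that binds and restrains LATS kinases. Its level was 12, 16.9, 13.2, 14.4, 16.3 and 16.1 CPM in vehicle mice 1 to 6, and 7.53, 6.9, 8.74, 10.2, 10 and 7.91 CPM in SK-124 mice 1 to 6. Every SK-124 mouse was below every vehicle mouse, and vehicle mouse 5 was within the range of its group. The mean went from 14.8 ± 1.95 to 8.55 ± 1.35 CPM (SD, n = 6 each), 1.73-fold lower (log2 fold change -0.79, SE 0.11, FDR = 3.09e-05). Without vehicle mouse 5 and SK-124 mice 1, 2 and 3, it was -0.63 (FDR = 0.00488), so that it passed the test also without the mice on which *Ccn1* depended.

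*Amotl2* (ENSMUSG00000032531.15, chr9:102716672-102733418, plus strand) encodes an angiomotin-like junction protein that retains YAP in the cytoplasm. It was at 33.3, 32.5, 30.4, 38.5, 45.3 and 32.5 CPM in vehicle mice 1 to 6 and at 34.7, 26.9, 22.2, 32, 32.4 and 25.5 CPM in SK-124 mice 1 to 6. Vehicle mouse 5 was the highest, and SK-124 mice 1, 4 and 5 lay within the vehicle range. The log2 fold change was -0.29 (95% interval -0.53 to -0.05) and missed the threshold (FDR = 0.0691). It passed without vehicle mouse 3 (FDR = 0.0389) or without SK-124 mouse 1 (FDR = 0.0364), and was -0.21 (FDR = 0.171) without vehicle mouse 5.

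*Lats2* (ENSMUSG00000021959.16, chr14:57689662-57758388, minus strand), a LATS kinase of the Hippo cascade that is itself a YAP target, showed 18.3, 22.4, 18.2, 26.2, 25.3 and 21.2 CPM in vehicle mice 1 to 6 and 24.3, 21.3, 20.2, 24, 21.5 and 20.8 CPM in SK-124 mice 1 to 6. All SK-124 mice lay within the vehicle range. On the log2 scale the difference was 0.00 (95% interval -0.19 to 0.20, FDR = 0.977), which leaves out a change of the size seen in *Ajuba*.

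*Ankrd1* (ENSMUSG00000024803.9, chr19:36111961-36120099, minus strand), a nuclear ankyrin-repeat protein induced by stretch in muscle and a common YAP reporter gene, was near the lower end of what could be measured, with 8 to 26 counts per mouse. It was at 0.741, 0.743, 0.511, 0.958, 1.23 and 0.569 CPM in vehicle mice 1 to 6 and at 1.04, 0.468, 1.46, 1.29, 1.3 and 0.963 CPM in SK-124 mice 1 to 6. The groups overlapped, and 3 SK-124 mice were above all vehicle mice. The log2 fold change was 0.46 (95% interval -0.09 to 1.01, FDR = 0.228), an interval that holds both 0 and a change of the size of *Tead1*.

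Of the factors themselves, *Tead1* (ENSMUSG00000055320.18) rose. It encodes a DNA-binding TEAD factor through which YAP and TAZ reach their targets. Vehicle mice 1 to 6 had 55.7, 67, 40.9, 61.6, 61.5 and 64.2 CPM, and SK-124 mice 1 to 6 had 91.1, 102, 70.1, 75.4, 85.6 and 78.2 CPM. Every SK-124 mouse was above every vehicle mouse. The mean went from 58.5 ± 9.38 to 83.8 ± 11.8 CPM (SD, n = 6 each), 1.43-fold higher (log2 fold change 0.52, SE 0.11, FDR = 0.00178). The rise was 0.33 and missed the threshold (FDR = 0.0695) on the log2(TPM + 1) scale, where TPM is the length-corrected level that RSEM gives. The gene *2310014F06Rik*, which overlaps *Tead1* on the opposite strand, had at most 39 counts in any mouse, against at least 801 for *Tead1*.

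*Yap1* (ENSMUSG00000053110.13, chr9:7931999-8004596, minus strand), the coactivator, had the smallest SE of the 10 genes, 0.06 on the log2 scale. It was at 31.3, 36.5, 29, 32.4, 35.7 and 34.4 CPM in vehicle mice 1 to 6 and at 34.2, 34.2, 33, 35, 33.9 and 34.9 CPM in SK-124 mice 1 to 6. All SK-124 mice lay within the vehicle range. *Yap1* had a log2 fold change of 0.04 (95% interval -0.08 to 0.17, FDR = 0.649), and its sign turned with the scaling, from -0.07 to 0.09 over all settings.

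Compared per transcript length, the 10 genes differed widely in level. In vehicle mice, *Ccn2* had the highest mean at 14.1 ± 6.24 TPM, followed by *Ccn1* at 12.5 ± 14.3, *Yap1* at 8.72 ± 1.26 and *Amotl2* at 8.14 ± 1.64 (SD, n = 6 each). *Ccn1* was above *Yap1* in only 2 of 6 vehicle mice, and its median was 6.99 TPM, so its place in this order came from vehicle mouse 5. *Tead1*, *Ajuba*, *Thbs1* and *Lats2* lay between 5.94 and 4.28 TPM, and *Amotl2* was above *Tead1* in 6 of 6 mice. *Ajuba* was above *Thbs1*, and *Thbs1* above *Lats2*, in 4 of 6 mice each, which did not set these neighbours apart. *Fjx1* at 1.17 ± 0.0916 TPM and *Ankrd1* at 0.422 ± 0.156 TPM were lowest, each below the gene before it in 6 of 6 mice.

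Beside *Ccn1*, vehicle mouse 5 was the highest of the vehicle mice in 4 of the other 9 genes (*Ccn2*, *Ankrd1*, *Amotl2* and *Thbs1*), or 44.4%, compared with 17.5% of all genes tested. In that kidney 7 of 14159 genes, *Ccn1* included, were at least as far above the median of the other vehicle mice as *Ccn1*. To see which genes varied with *Ccn1* from mouse to mouse, levels were compared after the mean of each group had been subtracted. The highest Pearson correlations over the 12 mice belonged to the immediate early genes *Fos* (r = 0.95), *Dusp1* (0.94), *Zfp36* (0.92), *Egr1* (0.90) and *Myc* (0.88). These values are a description, and they rested in part on vehicle mouse 5, without which they were 0.74, 0.75, 0.64, 0.61 and 0.37 over 11 mice. Of the other 9 genes, *Thbs1* was most like *Ccn1* with all mice (0.82), while without vehicle mouse 5 *Thbs1* and *Ajuba* were alike at 0.74, and *Tead1* was least like it without that mouse (0.14, or 0.05).

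In vehicle mouse 5, *Fos* was at 27.1 CPM, compared with 0.496 to 2.12 CPM in the other 5 vehicle mice. *Egr1*, a zinc finger factor induced by serum and stretch, was at 215 CPM there, compared with 5.8 to 18.8 CPM. *Dusp1*, a MAP kinase phosphatase, was at 73.2 CPM, compared with 22.7 to 31.2 CPM. Since these genes were picked for their likeness to *Ccn1* over mice that included this one, their height in it is part of the choice.

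In SK-124 mice, *Fos* was at 2.43 to 12.1 CPM and *Dusp1* at 106 to 213 CPM, above the other 5 vehicle mice in every case. The log2 fold change of *Fos* was 0.13 (FDR = 0.925) with all mice and 2.67 (FDR = 0.000362) without vehicle mouse 5. That of *Egr1* turned from -0.65 (FDR = 0.61) to a rise with FDR = 0.0314 (median 17.6 CPM in SK-124 mice and 6.37 CPM in the other 5 vehicle mice), and *Dusp1* rose by 2.18 (FDR = 4.09e-06) with all mice. *Myc* missed the threshold without vehicle mouse 5 (0.23, FDR = 0.0573). These genes were picked in part for their height in vehicle mouse 5, so leaving it out was bound to raise their log2 fold changes. Their FDR values without that mouse are therefore a description only. The genes most like *Ccn1* over the 11 mice without vehicle mouse 5 were others, namely *Adck2*, *Mgat4b*, *Rab23*, *Zfp202* and *Lss* (r = 0.90 to 0.93). In those mice *Rab23* (0.30, FDR = 0.0139) and *Lss* (0.32, FDR = 0.00471) rose, *Zfp202* fell (-0.58, FDR = 0.011), and *Adck2* (-0.03) and *Mgat4b* (-0.01) did not pass the test. Which 5 genes were most like *Ccn1* thus depended on that 1 mouse.

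**Figure D2:**
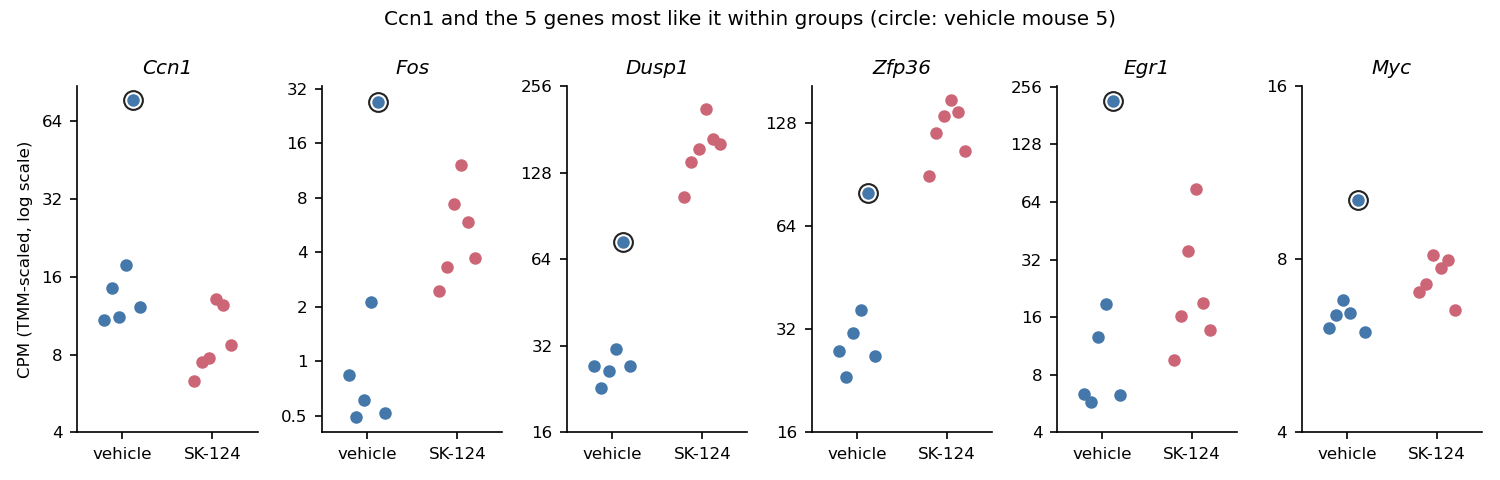
Level of *Ccn1* and of the 5 genes whose level was most like it within groups, in each mouse, in TMM-scaled CPM on a log axis (vehicle in blue, SK-124 in red, n = 6 per group). Vehicle mouse 5, circled, is the highest vehicle mouse in all 6 genes, and the SK-124 mice are above the other 5 vehicle mice in *Fos*, *Dusp1* and *Zfp36* whereas in *Ccn1* 4 of 6 SK-124 mice are below every vehicle mouse.

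A wider list was made of the 16 genes of a 22-gene YAP/TAZ target signature that are not among the 10. Of the 16, 15 could be tested, and of these 6 fell, 2 rose and 7 did not pass the test (median log2 fold change -0.24, compared with -0.01 over all genes tested). *Foxf2*, the gene left out, had at most 1 count in any mouse. The shares that fell and rose may be read against the 13.5% of all genes tested that fell and the 10.8% that rose. No test was made of the list as a whole. Without SK-124 mice 1, 2 and 3, 3 of the 15 fell. In that fit 1267 of 14621 genes fell, compared with 1917 of 14159 with all mice.

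The largest fall was that of *Nuak2*, an AMPK-related kinase that LKB1 activates, as it does the salt-inducible kinases. *Nuak2* was at 35.4, 61.6, 43.1, 57.6, 66.3 and 63 CPM in vehicle mice 1 to 6 and at 12.6, 13.7, 11.8, 12.3, 14.7 and 10.9 CPM in SK-124 mice 1 to 6. The groups were far apart, and the log2 fold change was -2.10 (SE 0.14, FDR = 5.74e-09), or 4.30-fold lower. *Arhgef17* fell from 38.2 ± 5.41 to 21.4 ± 1.3 CPM (log2 fold change -0.84, FDR = 1.28e-06). *Tgfb2*, the ligand TGF-β2, fell from 1.95 ± 0.457 to 0.698 ± 0.0925 CPM (-1.48, FDR = 1.66e-05). In these 3 genes every SK-124 mouse was below every vehicle mouse, and the fall was -2.04, -0.80 and -1.46 without vehicle mouse 5 and SK-124 mice 1, 2 and 3.

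*F3*, which encodes tissue factor, the initiator of coagulation, fell from 10.7 ± 1.29 to 7.23 ± 1.44 CPM (log2 fold change -0.55, FDR = 0.00224). However, it was at -0.36 (FDR = 0.0573) without SK-124 mice 1, 2 and 3, and at -0.32 (FDR = 0.0996) without vehicle mouse 5 as well. *Axl*, a receptor tyrosine kinase, at -0.24 (FDR = 0.0497) and *Ccdc80*, a matrix protein, at -0.48 (FDR = 0.0457) only just passed. The genes that rose were *Gadd45a*, a growth arrest gene, at 0.34 (FDR = 0.0069) and *Nt5e*, the ectonucleotidase CD73, at 0.27 (FDR = 0.0322). Neither passed when counts were scaled by library totals.

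**Figure D3:**
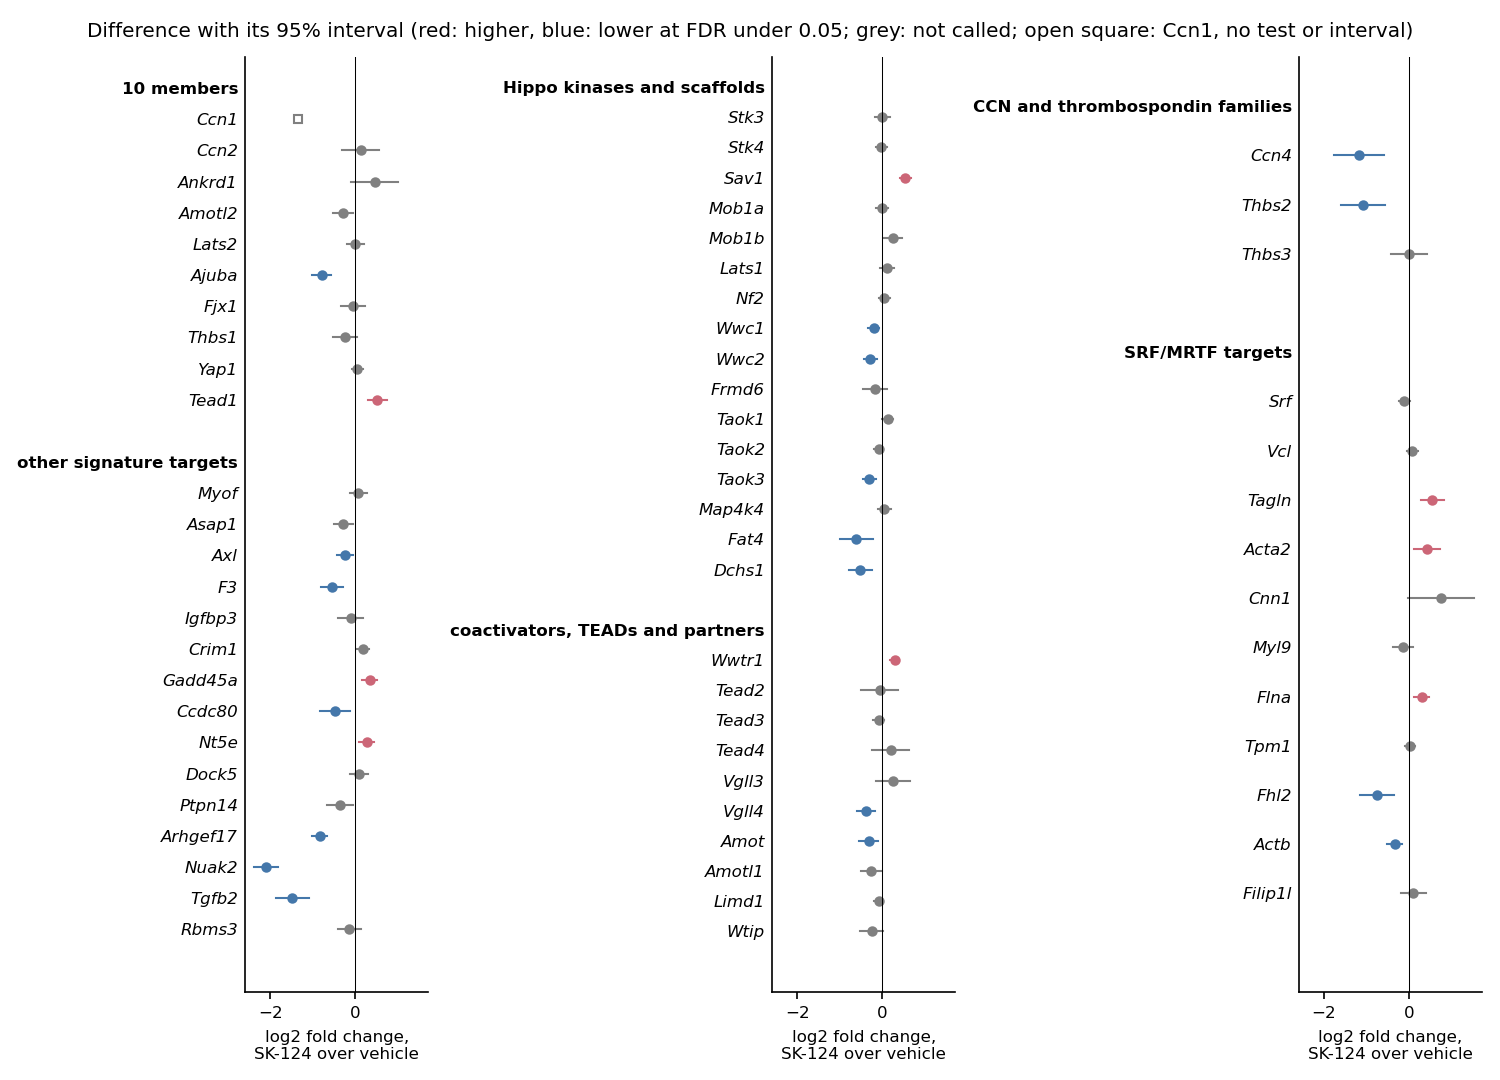
Log2 fold change of SK-124 over vehicle for each gene tested in the 6 lists, with its 95% interval from the fit over all genes (n = 6 per group). *Ccn1* is an open square without an interval; *Ajuba* is the gene that fell and *Tead1* the gene that rose among the other 9, and *Nuak2*, at -2.10, is farthest from 0.

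Upstream of YAP, all 16 genes of the Hippo kinase cascade and its regulators could be tested, and 5 fell and 1 rose (median -0.02), compared with 13.5% and 10.8% of all genes tested. The core kinases *Stk3* and *Stk4* (MST2 and MST1) were at -0.00 (FDR = 0.999) and -0.02 (FDR = 0.847), and *Lats1*, the paralogue of *Lats2*, was at 0.11 (FDR = 0.373). *Sav1*, the scaffold that brings MST and LATS kinases together, rose from 29.1 ± 2.6 to 42.4 ± 1.68 CPM (log2 fold change 0.54, FDR = 4.53e-06), with every SK-124 mouse above every vehicle mouse. The genes that fell were regulators rather than core kinases: *Wwc2*, a KIBRA-family scaffold (-0.28, FDR = 0.00573), its paralogue *Wwc1* (-0.20, FDR = 0.0286), *Taok3*, a TAO kinase (-0.30, FDR = 0.0073), and the protocadherins *Dchs1* (-0.52, FDR = 0.00612) and *Fat4* (-0.61, FDR = 0.0208). Without vehicle mouse 5 and SK-124 mice 1, 2 and 3, only 1 gene of the list, *Sav1*, passed, at 0.58 (FDR = 0.00043). *Wwc2* was then at -0.24 (FDR = 0.107), *Dchs1* at -0.43 (FDR = 0.0742) and *Taok3* at -0.28 (FDR = 0.0621). In that fit, with fewer mice, 1083 of 14526 genes fell and 1056 rose, compared with 1917 and 1536 of 14159 with all mice.

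Of 12 genes for TAZ, the other TEAD factors and their binding partners, 10 could be tested, and 2 fell and 1 rose (median -0.08), which is near the 13.5% and 10.8% of all genes tested. *Wwtr1*, which encodes TAZ, rose from 49.6 ± 3 to 60.6 ± 2.69 CPM (log2 fold change 0.29, FDR = 0.000665), with no overlap between groups. It was at 0.17 (FDR = 0.0999) when counts were scaled by library totals and at 0.12 (FDR = 0.404) on the log2(TPM + 1) scale. *Tead2* at -0.05 (FDR = 0.886), *Tead3* at -0.08 (FDR = 0.374) and *Tead4* at 0.20 (FDR = 0.547) did not pass the test, so *Tead1* was the TEAD gene that rose. Whether *Tead1* differed from its paralogues was not tested. *Vgll4*, a cofactor that competes with YAP for TEAD, was at -0.39 (FDR = 0.00656). It missed the threshold without vehicle mouse 5 and SK-124 mice 1, 2 and 3 (-0.37, FDR = 0.0792). *Amot*, an angiomotin, was at -0.32 (FDR = 0.0323) and kept its call in only 13 of 23 other settings. It missed the threshold in most fits that left out 1 mouse (FDR up to 0.0803). *Vgll1* and *Vgll2* had 0 counts in every mouse.

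Of the 7 other CCN and thrombospondin genes, 3 had enough counts to be tested, and 2 of these fell, compared with 13.5% of all genes tested. *Ccn4*, a WNT-induced CCN protein, fell from 1.99 ± 0.751 to 0.877 ± 0.324 CPM (log2 fold change -1.17, FDR = 0.0051), and *Thbs2*, a thrombospondin of mesenchymal cells, from 2.18 ± 0.572 to 1.02 ± 0.385 CPM (-1.09, FDR = 0.00326). *Thbs3* was at -0.00 (FDR = 0.999). Without SK-124 mice 1, 2 and 3, *Ccn4* was at -1.01 and missed the threshold (FDR = 0.068), and without vehicle mouse 5 as well it was at -0.88 (FDR = 0.116).

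Some markers of stromal and vascular cells fell in the same comparison, and most did not pass the test. The counts below may be read against the 13.5% of all genes tested that fell. Of 5 mesangial and smooth muscle markers, 2 fell (*Pdgfrb* and *Cspg4*), and their summed level was 65.2 to 84.2 CPM in vehicle and 44.4 to 60.9 CPM in SK-124 mice. Of 7 endothelial markers, 3 fell (*Kdr*, *Tek* and *Eng*; 241 to 337 and 194 to 318 CPM), and of 5 fibroblast markers 1 fell (*Col1a2*; 123 to 196 and 89 to 171 CPM). Of 4 immune markers tested, 2 fell (*Cd68* and *Cd79a*; 9.42 to 13.8 and 6.96 to 8.88 CPM), whereas none of the 5 proximal tubule markers did. The part of these cell types in the values of *Thbs2*, *Ccn4*, *Tgfb2*, *Ccdc80*, *Arhgef17* and *Ajuba* was not tested.

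CCN genes and *Ankrd1* are shared with another transcriptional route, in which serum response factor (SRF) and its coactivators MRTF respond to actin. Of 12 SRF and MRTF targets of actin and muscle, 11 were tested, and 2 fell and 3 rose (median 0.07), compared with 13.5% and 10.8% of all genes tested. *Tagln*, which encodes the smooth muscle protein transgelin, rose from 18.5 ± 4.87 to 27.1 ± 3.12 CPM (log2 fold change 0.55, FDR = 0.00519), *Acta2*, smooth muscle actin, was at 0.41 (FDR = 0.0452), and *Flna*, a crosslinker of actin, was at 0.30 (FDR = 0.02). *Fhl2*, a LIM-domain cofactor, fell from 5.87 ± 1.55 to 3.46 ± 0.978 CPM (-0.76, FDR = 0.00655), and *Actb*, cytoplasmic actin, was at -0.34 (FDR = 0.00712). Without SK-124 mice 1, 2 and 3, *Actb* was at -0.27 and missed the threshold (FDR = 0.112), and without vehicle mouse 5 as well it was at -0.24 (FDR = 0.186). *Fhl2* was at -0.65 (FDR = 0.0506) without these 4 mice. *Srf* itself was at -0.11 (FDR = 0.24). *Tagln* missed the threshold on the log2(TPM + 1) scale (0.37, FDR = 0.0935), and *Flna* there (FDR = 0.755), without vehicle mouse 1 (FDR = 0.0507) and with library totals (FDR = 0.215).

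**Figure D4:**
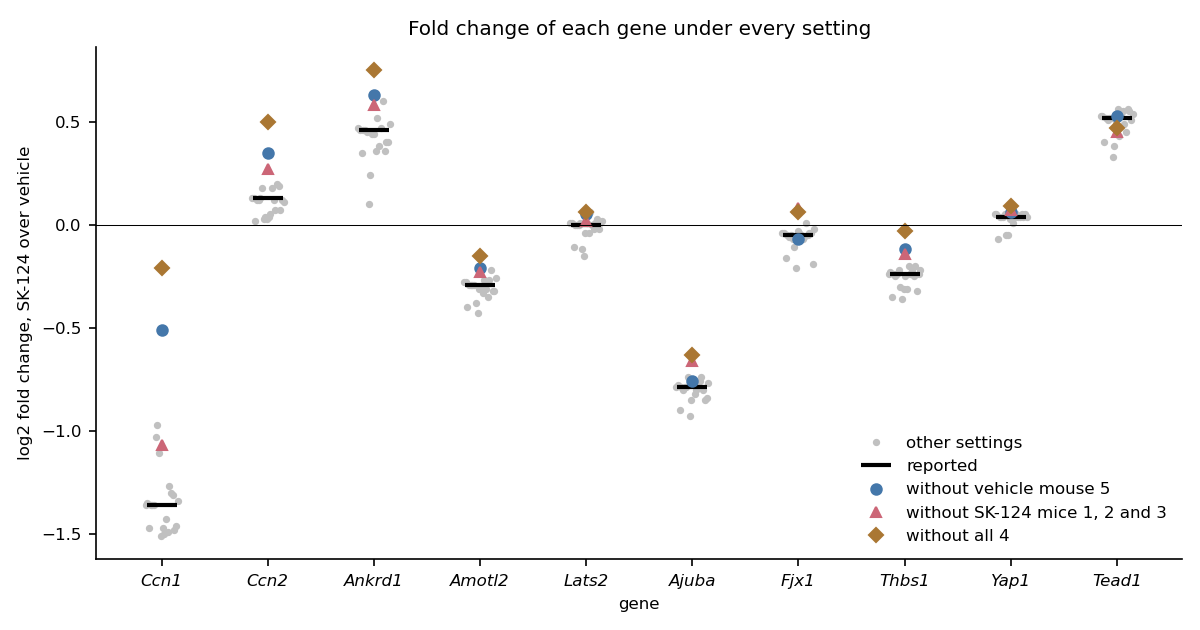
Log2 fold change of each of the 10 genes under the reported fit (black bar) and every other setting (points), with the fits that leave out vehicle mouse 5, SK-124 mice 1, 2 and 3, or all 4 drawn in colour. *Ccn1* ranges from -1.51 to -0.21, whereas *Ajuba* stays between -0.93 and -0.63 and *Tead1* between 0.33 and 0.56.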

How the data were processed

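Whole kidneys were sequenced on a BGISEQ500 instrument. The authors deposited, per mouse, RSEM expected counts, TPM and a posterior standard deviation of the count for each gene. The submitters' processing notes name mm10, STAR 2.7.2b, RSEM 1.3.0, FastQC and DESeq2. The annotation and strand setting are not given in the sources used here. Expected counts were rounded and tested with edgeR 4.0.16 (quasi-likelihood test, TMM scaling, filterByExpr, Benjamini-Hochberg FDR under 0.05 over 14159 genes) in R 4.3.3, with all 12 mice and no covariate. The script was tested on simulated data. CPM are TMM-scaled. Intervals and SE come from this fit, and ± is SD. The p-values set the difference between groups against the spread between these mice, which the fit estimates with information from all genes tested. For 9 of the 10 genes the posterior standard deviation was 0 in every mouse, and for *Lats2* it was at most 5.1 counts. Of the identifiers, 55141 of 55401 matched GENCODE M21 (GRCm38), 54349 with their version; that of *Tead1* did not match its version.

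The genes and lists were chosen with earlier results of these data known. Named were the 10 genes, of each further list all genes past the threshold if 4 or fewer and otherwise the 4 with the smallest p, the paralogues *Wwtr1*, *Lats1*, *Tead2*, *Tead3* and *Tead4*, and the 5 genes most correlated with *Ccn1* on log2(CPM + 0.5), among those averaging 1 CPM or more. *Axl*, *Ccdc80*, *Gadd45a*, *Nt5e*, *Wwc1*, *Fat4*, *Acta2*, *Stk3*, *Stk4*, *Srf*, *Thbs3* and the 5 genes most like *Ccn1* without vehicle mouse 5 were added after their values were seen, to complete the counts. Alternatives were DESeq2 1.42.0, RLE size factors, library totals, limma 3.58.1 on log2(TPM + 1) and log2(TPM + 0.1), a replicate block, unrounded values, no filter, a minimum of 10 counts per mouse, leaving out 1 mouse at a time, and SK-124 mice 1, 2 and 3 left out. The fit that also left out vehicle mouse 5 was added after seeing the data. No pair of mice in a group agreed within sampling noise (smallest chi-square per degree of freedom 4.41 over 30 pairs).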

Additional observations from a re-analysis of the deposited data

Results flagged for a closer look

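Single mice far from the rest of their group, by Dixon's ratio at its 95% critical value, were found in 4 of 62 groups of values from the 31 named genes, where chance alone gives about 3. For *Ccn1*, vehicle mouse 5 was the highest at 77 CPM. The values of *Ccn1* led to the choice of genes, so its flag is a description and is not to be read against chance. For *Fjx1*, SK-124 mouse 5 was the highest at 5.16 CPM. For *Wwc2* and *Wwtr1*, vehicle mouse 3 was the lowest at 68.1 and 43.8 CPM.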

How the results depend on the processing

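With library totals alone the median of all genes shifted to -0.12, with 3058 genes lower and 777 higher (20.3% of calls higher, compared with 44.5% as reported), and with limma on log2(TPM + 1) and log2(TPM + 0.1) it shifted to -0.11 and -0.14, with 500 and 498 higher (19% of calls in both). Without SK-124 mice 1, 2 and 3, 1267 genes were lower, and 1083 when vehicle mouse 5 was left out as well. Of the 9 genes beside *Ccn1*, 2 were lower with library totals, where *Amotl2* was at -0.40 (FDR = 0.0213), and 0 were higher in both limma fits, where *Tead1* missed the threshold. When 1 mouse was left out, 1 to 2 of the 9 were lower. Same-numbered mice correlated at -0.13 to 0.22, over 0.1 in 2 of 6 pairs (numbers 2 and 3), which were each the best match of the vehicle mouse. The reported fit did not pair the mice, and whether the numbers mark a shared batch was not tested. With the number as a replicate block 2 of the 9 were lower, *Amotl2* at FDR = 0.00956. Of the other signature genes, 3 were lower without SK-124 mice 1, 2 and 3, with or without vehicle mouse 5, and 0 were higher with library totals and in both limma fits, 1 without SK-124 mice 1, 2 and 3, and 1 to 2 when 1 mouse was left out. Of the Hippo regulators 1 was called without all 4 mice, and genes for TAZ, TEAD factors and partners reached 5 with library totals. Of the CCN and thrombospondin genes, 0 were called with at least 10 counts in every mouse, a filter that removed them, and 1 without SK-124 mice 1, 2 and 3, with or without vehicle mouse 5. SRF targets called were 3 with library totals, 2 in both limma fits and 3 to 5 when 1 mouse was left out. *Ccn1* ranged from -1.51 to -0.51 when 1 mouse was left out. No named gene turned its direction while past the threshold. Unless a fit's own construction shows it, the cause was not tested. *Ankrd1*, at 8 to 26 counts, is limited by depth.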
